A study of Mus musculus with 8 samples.

Results

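The CXCL12 chemokine axis was followed in mouse forebrain microvessels through the probes whose listed accession belongs to Cxcl12, Cxcr4 or Ackr3. These 3 genes had 4 of the 39429 probes of the array: 2 for Cxcl12 and 1 each for Cxcr4 and Ackr3. The set was chosen by the log2 ratios of the 2 Cxcl12 probes between young and adult vessels, which had disagreed in earlier results of the same arrays, so the Cxcl12 values are given as a description, without a test. All 4 probes passed the filter on dim probes, were well above background in every channel of all 8 arrays, and were saturated in none.

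RNA came from microvessels enriched from whole forebrain by homogenisation, sedimentation and filtration, which recovers particles under 70 µm, at 5 days (P5), 10 days (P10) and in the adult. The labels give no strain, sex, treatment or number of animals, and no exact adult age. Each of 8 two-colour Agilent 4x44K arrays held RNA of 2 ages: P5 against adult, P10 against adult in both dye orientations, and P5 against P10, each in 2 replicates. The labels do not say whether the replicates came from separate animals or pools, so p-values cover the spread between these samples alone, and that spread may be technical.

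Each array had 43020 spots other than controls, of which 65.2% to 73.3% per channel were well above background. With 2 replicates, the number of samples limits the precision. Over all probes the 2 replicates correlated with r = 0.9 for P5 minus adult and 0.814 for P10 minus adult, which is across probes and not across independent samples.

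CXCL12 (SDF-1) is a chemokine that binds heparan sulfate on cell surfaces and guides migrating cells through 2 receptors. CXCR4 is a G protein-coupled receptor that signals through Gi proteins, whereas ACKR3 (CXCR7) binds CXCL12, recruits arrestin and removes the chemokine from the surroundings. In the developing brain the axis is known for interneuron and granule cell migration and for vessel growth, and in the adult for keeping leukocytes at the outer side of brain vessels. Mouse Cxcl12 is spliced into transcripts that share their first exons and differ at the end of the coding sequence. The alpha form is the shortest, and the gamma form carries a basic tail that binds heparan sulfate strongly.

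Cxcl12 lies on mouse chromosome 6 and has 3 RefSeq transcripts in the table used for names (GRCm38.p6), while Cxcr4 and Ackr3 lie on chromosome 1. Probe A_51_P172502 is listed under NM_001012477, the gamma transcript, and probe A_55_P1966204 under NM_021704, the alpha transcript. No probe is listed under the beta transcript. They are called the brighter and the dimmer Cxcl12 probe below, as names only. Which of the transcripts each probe binds was not determined, since probe sequences were not used here. The Cxcr4 probe is A_52_P585124 (NM_009911) and the Ackr3 probe A_52_P675395 (NM_007722).

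The RefSeq table of promoters holds 1 window for Cxcl12, so the 2 probes are paired here with a single listed start. It is shown because the probes of this gene gave different age patterns. The 250 bases before that start, chr6:117168285-117168534 on the + strand of GRCm38.p6, read 5′ to 3′ with GC boxes in capitals (GGGCGG or its reverse complement CCGCCC):
Cxcl12: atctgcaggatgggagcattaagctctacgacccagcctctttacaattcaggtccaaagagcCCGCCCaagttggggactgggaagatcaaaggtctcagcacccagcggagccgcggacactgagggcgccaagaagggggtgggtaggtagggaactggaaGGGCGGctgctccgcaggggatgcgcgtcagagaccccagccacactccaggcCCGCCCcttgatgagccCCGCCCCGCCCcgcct
The window holds 5 GC boxes on the 2 strands, counting a pair that overlap, and a GC box occurs in 32.7% of the 32851 promoter windows of the same length. It holds neither TATAAA, present in 12.4% of the windows, nor ACGTG, the core of hypoxia response elements, present in 16.6%, searched on both strands. Its GC content was 64.4%, against a median of 52.4% over all windows. These matches describe the letters of the window and show no binding.

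The brighter Cxcl12 probe gave far less signal at P5 than in the adult, an intermediate signal at P10, and the same order in both replicates. On the P5/adult arrays its median spot signal, an intensity on a linear scale before normalization, was 6099 for P5 against 80598 for adult in replicate 1, and 7149 against 82476 in replicate 2. On the dye-exchanged P10/adult arrays it was 4552 for P10 against 163124 for adult in replicate 1, and 7380.5 against 167491 in replicate 2. The young channel was thus the dimmer one in both dye orientations on these 4 arrays.

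In the other orientation, with P10 in Cy5, the signals of the brighter probe were 53759 for P10 and 52906.5 for adult in replicate 1. That array had a median signal of 258.5 in Cy5 and 76 in Cy3 over its spots, so near-equal raw signals became a log2 ratio of -2.78 after loess normalization, which adjusts the dyes to each other along the intensity range. The same array of replicate 2 had 30592 for P10 and 99001 for adult. On the P5/P10 arrays the signals were 3555 against 15213 in replicate 1 and 5097 against 9211 in replicate 2.

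After normalization the log2 ratio of younger over older age was negative for the brighter Cxcl12 probe on all 8 arrays. For P5 over adult it was -4.27 in replicate 1 and -4.17 in replicate 2. For P10 over adult it was -2.78 and -2.94 with P10 in Cy5, and -3.86 and -3.21 with the dyes exchanged. For P5 over P10 it was -2.04 and -1.63, compared with -1.48 and -1.23 when taken as the difference between the P5/adult and P10/adult arrays. The direct and indirect routes gave the same sign. The dye term of the fit, which is shared by all Cy5 over Cy3 ratios, was 0.54 in replicate 1 and 0.14 in replicate 2. A positive term would put the direct P5/P10 ratio, with P5 in Cy5, above the difference, in which the term cancels. The direct ratio lay below the difference in both replicates, so the arrays did not agree on the sign of this term.

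**Figure D1:**
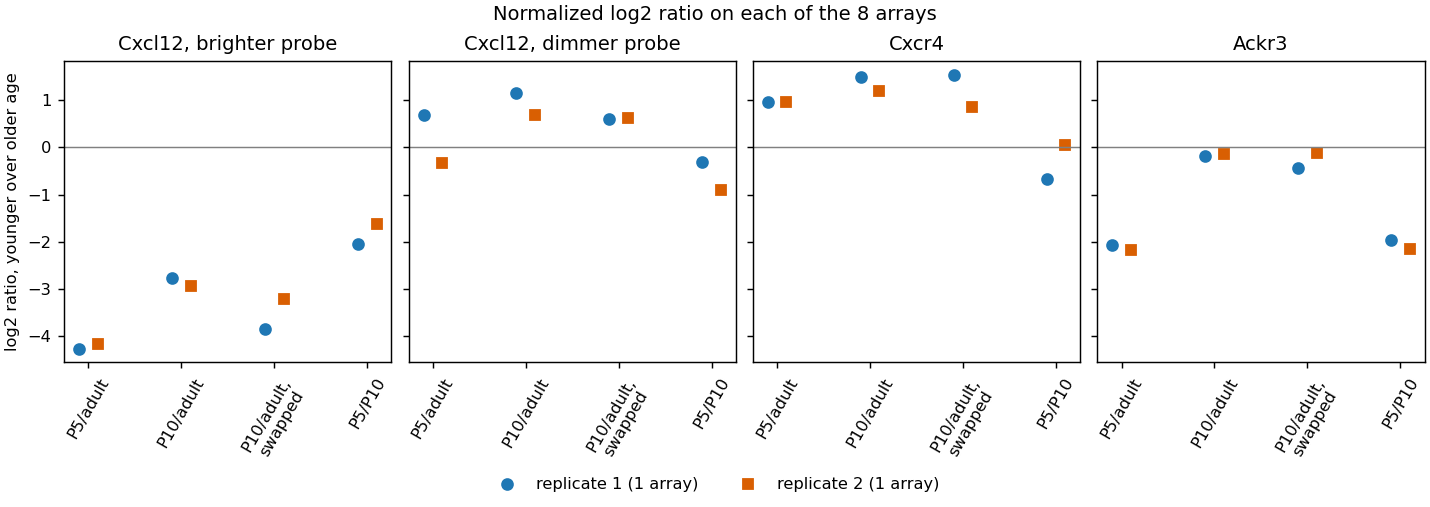
Normalized log2 ratio of the younger over the older age (y axis, the same scale in every panel) for each of the 4 probes on each of the 8 arrays (x axis, type of array; colour and shape, replicate); each point is 1 array, and dye-exchanged arrays were turned to the same direction. The brighter Cxcl12 probe lies below 0 on all 8 arrays, from -4.27 to -1.63, whereas the dimmer one lies above 0 on all 4 P10/adult arrays and on both sides of it for P5/adult.

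Combining the 4 arrays of each replicate, with a term for the dye, gave 1 value per age and replicate. P5 minus adult was -5.24 and -4.52, a mean of -4.88 ± 0.51 (SD, n = 2) or 29.5-fold lower. P10 minus adult was -3.10 and -2.97, a mean of -3.04 ± 0.094 (SD, n = 2) or 8.2-fold lower. P5 minus P10 was -2.14 and -1.55, a mean of -1.85 ± 0.42 (SD, n = 2) or 3.6-fold lower. In both replicates the order was P5 below P10 below adult. Both combined values of P5 minus adult lie below the direct ratios of -4.27 and -4.17. P5 was in Cy5 on every array that held it, and only the P10/adult arrays had both dye orientations. Without the dye term and the dye-exchanged arrays P5 minus adult was -4.38. With separate-channel levels and no replicate block it was -4.48. The size of the 29.5-fold difference thus depends on the dye term, on whose sign the arrays did not agree.

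By these combined values, 0 of the 27089 probes fitted had a lower mean P5 minus adult than the brighter Cxcl12 probe. For P10 minus adult 4 probes were lower, and for P5 minus P10 55 were. Ranks were not taken without the dye term. Across 8 other processing choices P5 minus adult ran from -5.58 with median centring in place of loess to -4.01 without the 2 arrays that held spots of faulty recorded background (P10/adult with exchanged dyes in replicate 1, and P5/P10 in replicate 2). P5 minus P10 ran from -2.79 with median centring to -1.36 without those 2 arrays.

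The dimmer Cxcl12 probe showed another pattern, highest at P10 and with no settled order between P5 and adult. Its median signals on the P5/adult arrays were 1638 for P5 against 688 for adult in replicate 1, and 1637 against 1638 in replicate 2. On the P10/adult arrays they were 5543 for P10 against 534 for adult in replicate 1 and 4887.5 against 1723 in replicate 2. With the dyes exchanged they were 1264.5 for P10 against 2012 for adult in replicate 1 and 2063.5 against 3069 in replicate 2, so that before normalization the Cy5 channel was the brighter on all 4 of these P10/adult arrays. On the P5/P10 arrays, where P5 was in Cy5, they were 1143 against 1368.5 and 1618 against 1833.

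The normalized log2 ratio of the dimmer probe for P10 over adult was positive in both dye orientations, at 1.16 and 0.69 with P10 in Cy5 and 0.61 and 0.63 with the dyes exchanged. For P5 over adult it was 0.69 in replicate 1 and -0.34 in replicate 2, so the replicates fell on opposite sides of 0. For P5 over P10 it was -0.32 and -0.91, and -0.47 and -1.03 by difference. The dye term was 0.27 and 0.03.

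Combined per replicate, the dimmer probe's P10 minus adult was 0.91 and 0.64, a mean of 0.78 ± 0.19 (SD, n = 2) or 1.71-fold higher. P5 minus P10 was -0.54 and -0.98, a mean of -0.76 ± 0.31 or 1.69-fold lower at P5. P5 minus adult was 0.37 and -0.34, a mean of 0.02 ± 0.50. Among all probes these differences stood at the 95.7th percentile for P10 minus adult, the 5.63rd for P5 minus P10 and the 46.8th for P5 minus adult. With median centring P5 minus adult was -0.57 and P5 minus P10 -1.35.

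The 2 Cxcl12 probes therefore parted most between the young ages and the adult. The brighter minus the dimmer probe was -5.61 and -4.18 for P5 minus adult in replicates 1 and 2, a mean of -4.90, and -4.01 and -3.61 for P10 minus adult, a mean of -3.81. Between P5 and P10 both probes went the same way, with lower values at P5 in both replicates. The distance between probes is a difference of ratios and does not set their levels against each other.

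For scale, 4138 genes had at least 2 kept probes. The highest minus the lowest probe of a gene had a median of 0.34 and a 95th percentile of 1.48 for P5 minus adult, and of 0.14 and 0.72 for P10 minus adult. Cxcl12, which was chosen for this disagreement, was the gene with the widest distance in both. Next for P10 minus adult came Rad54b at 2.72, Birc5 at 2.59 and Madcam1 at 2.55. Genes whose probes were listed under several accessions, 605 in number, had a median distance of 0.51 for P5 minus adult, and the 3533 genes with all probes under 1 accession had 0.31. For P10 minus adult the medians were 0.23 and 0.13.

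**Figure D2:**
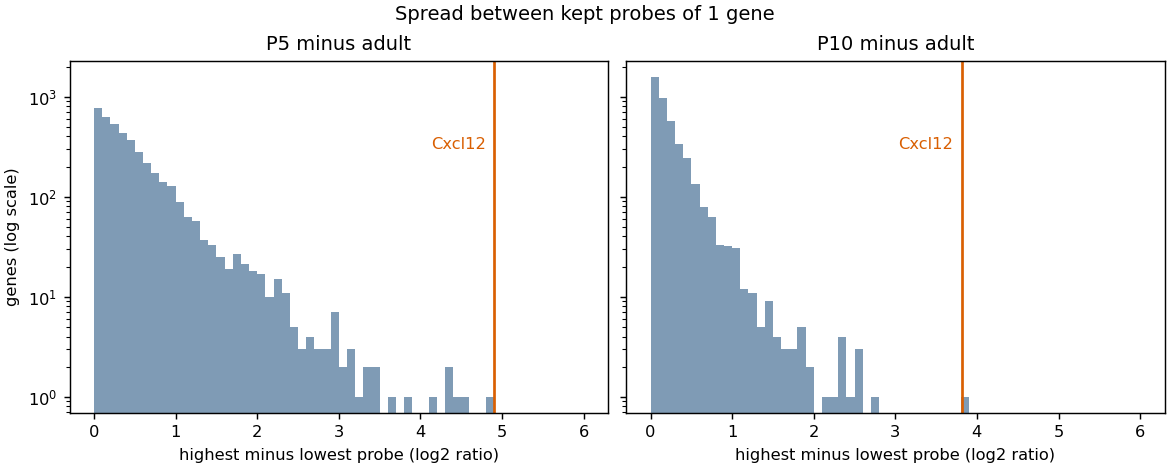
Histogram of the highest minus the lowest kept probe of each gene with at least 2 kept probes (x axis, difference of mean log2 ratios; y axis, number of the 4138 genes, log scale) for P5 minus adult and P10 minus adult; the line marks Cxcl12. Cxcl12 lies at 4.90 and 3.81, at the right end of both distributions, while the medians are 0.34 and 0.14.

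Cxcr4, the signalling receptor, was higher at both young ages than in the adult, in both replicates. Its P5/adult arrays had median signals of 480.5 for P5 against 130.5 for adult in replicate 1, and 565 against 195 in replicate 2. Its P10/adult arrays had 923 for P10 against 77 for adult in replicate 1, and 843 against 205 in replicate 2. With the dyes exchanged the signals were 500.5 for P10 against 390.5 for adult in replicate 1, and 378 against 425.5 in replicate 2. The normalized log2 ratios were above 0 on all 6 arrays that held adult RNA, at 0.97 and 0.97 for P5 over adult, and at 1.50 and 1.20, or 1.54 and 0.86 with the dyes exchanged, for P10 over adult.

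Combined per replicate, Cxcr4 at P5 minus adult was 0.94 and 0.84, a mean of 0.89 (SE 0.16, 95% interval 0.48 to 1.29) or 1.85-fold higher, with an adjusted p of 0.00921 by limma with Benjamini-Hochberg adjustment over all 27089 probes. P10 minus adult was 1.55 and 1.01, a mean of 1.28 (SE 0.16, interval 0.87 to 1.68) or 2.42-fold higher, with an adjusted p of 0.00995. Cxcr4 was thus above the adult level at both ages. Between P5 and P10 the values were -0.61 and -0.17, a mean of -0.39 with an interval of -0.79 to 0.02 (adjusted p = 0.107), and the 2 P5/P10 arrays were at -0.68 and 0.04. The order was adult lowest, with P5 and P10 not separated beyond their spread.

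The P5 call of Cxcr4 depended on the normalization. With median centring P5 minus adult was 0.64 (adjusted p = 0.0586), and with the background correction fitted on all spots, faulty ones included, it was 0.41 (adjusted p = 0.246) and P10 minus adult 1.01 (adjusted p = 0.119). All 8 alternatives kept both values above 0.

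Ackr3, the scavenging receptor, was low at P5 and close to the adult level by P10. On the P5/adult arrays its median signals were 684.5 for P5 against 2047.5 for adult in replicate 1, and 1160.5 against 4134 in replicate 2. On the P5/P10 arrays they were 557 for P5 against 2078 for P10 in replicate 1, and 959 against 2564 in replicate 2. P5 was in the Cy5 channel on all 4 of these arrays and was the dimmer channel on each, although Cy5 had the higher median over the spots of each array.

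On the P10/adult arrays the Ackr3 signals were 6662 for P10 against 1581 for adult in replicate 1 and 7072 against 4316.5 in replicate 2. With the dyes exchanged they were 1950.5 for P10 against 6528.5 for adult in replicate 1 and 3041 against 7680 in replicate 2. The brighter channel followed the dye, and the normalized log2 ratios of P10 over adult were -0.19, -0.15, -0.44 and -0.11. The normalized ratios of P5 over adult were -2.07 and -2.17, and those of P5 over P10 were -1.97 and -2.16, against -1.88 and -2.02 by difference.

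Combined per replicate, Ackr3 at P5 minus adult was -2.28 and -2.19, a mean of -2.24 (SE 0.10, 95% interval -2.50 to -1.98) or 4.72-fold lower, with an adjusted p of 0.000464 by limma. P5 minus P10 was -2.01 and -2.09, a mean of -2.05 (interval -2.31 to -1.79) or 4.14-fold lower, with an adjusted p of 0.0035. P10 minus adult was -0.27 and -0.11, a mean of -0.19 with an interval of -0.45 to 0.07 and an adjusted p of 0.278. P5 was thus lowest, and P10 and adult did not differ beyond their spread. With the background correction fitted on all spots, P5 minus P10 was -1.76 (adjusted p = 0.0626).

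The 2 receptors went opposite ways between P5 and adult, and both passed the threshold of an adjusted p below 0.05, where 52.1% of all probes did (28.1% higher and 24% lower). For P10 minus adult, Cxcr4 passed and Ackr3 did not, with 17.2% of all probes passing (8.15% higher and 9.05% lower). For P5 minus P10, Ackr3 passed and Cxcr4 did not, with 40.2% passing (21.5% higher and 18.7% lower). Cxcr4 stood at the 86.3rd percentile of all probes for P5 minus adult and the 98.3rd for P10 minus adult, where 460 probes were higher. Ackr3 had 233 probes below it for P5 minus adult and 30 for P5 minus P10. The comparisons are not independent, since all were fitted from the same arrays of each replicate. The labels do not say whether those arrays held the same adult RNA.

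**Figure D3:**
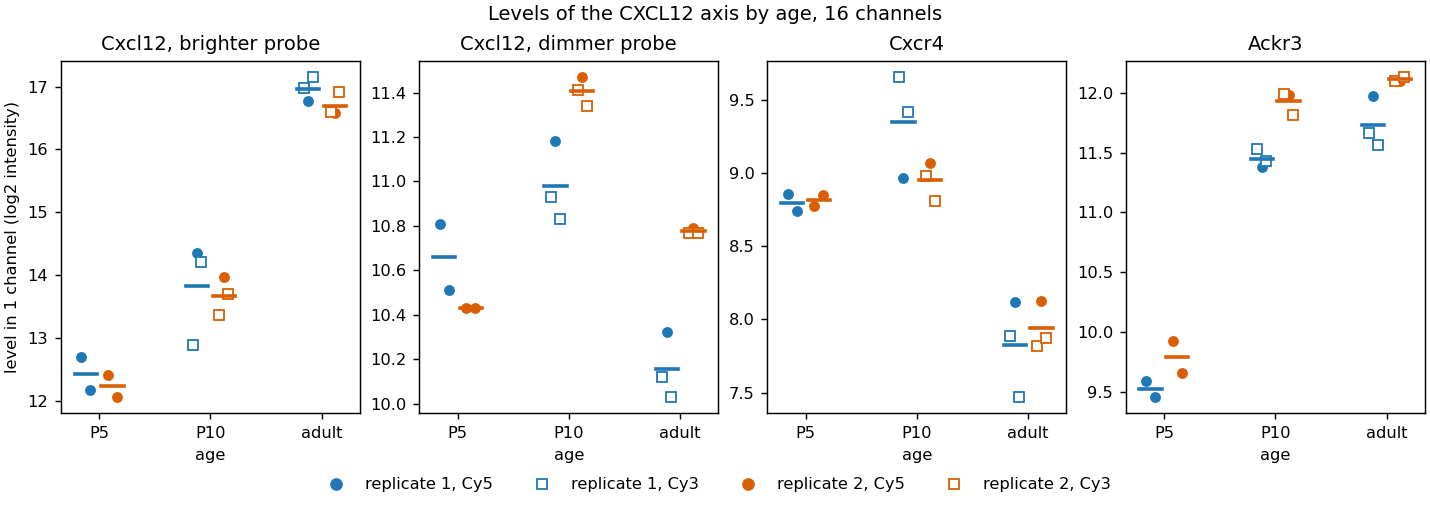
Level of each probe (y axis, log2 intensity after loess and Aquantile scaling; each panel has its own range) by age (x axis) in the 16 channels of the 8 arrays; points are single channels (colour, replicate; filled circle, Cy5; open square, Cy3) and bars are the mean of a replicate's channels at that age. The brighter Cxcl12 probe steps up from P5 to adult with no overlap, Cxcr4 is lowest in the adult channels, and Ackr3 is lowest in the P5 channels.

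Levels in single channels showed the same orders. For the brighter Cxcl12 probe the log2 levels were 12.07 to 12.70 in the 4 P5 channels, 12.90 to 14.36 in the 6 P10 channels and 16.58 to 17.15 in the 6 adult channels, with no overlap. The dimmer probe had 10.43 to 10.81 at P5, 10.83 to 11.47 at P10 and 10.03 to 10.79 in the adult, so the P10 channels lay above all others and the P5 and adult channels overlapped. Channels of the same replicate and age are not counted as replicates, since the labels do not say whether they hold the same RNA.

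Cxcr4 had log2 levels of 8.74 to 8.86 at P5, 8.81 to 9.66 at P10 and 7.47 to 8.13 in the adult. The adult channels lay below all others, and P5 and P10 overlapped. Ackr3 had 9.46 to 9.93 at P5, 11.38 to 11.99 at P10 and 11.56 to 12.13 in the adult. The P5 channels lay below all others, and P10 and adult overlapped.

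The genes nearest to each probe were found by Euclidean distance over 4 values, P5 minus adult and P10 minus adult in both replicates, among 15576 other genes with a symbol. Nearest to the brighter Cxcl12 probe were Degs2, a sphingolipid desaturase and hydroxylase, at a distance of 1 (means -4.74 and -2.46 for P5 and P10 minus adult), Prlr, the prolactin receptor, at 1.4 (-4.01 and -2.87), Ndrg1 at 1.4 (-4.14 and -3.47) and Slco1a4, which transports organic anions across brain endothelium, at 1.5 (-4.48 and -2.10). The number of genes closer than 1 was 0. The dimmer probe lay amid many genes, with 1703 closer than 1, and its nearest were Dact1, a regulator of Wnt signalling, at 0.079 (0.05 and 0.80), H4c3, a histone, at 0.15, Flrt2, a cell adhesion and guidance protein, at 0.20, and C1qtnf1 at 0.27.

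Cxcr4 had 421 genes closer than 1. Its nearest were Sfrp2, a secreted modulator of Wnt signalling, at 0.11 (0.85 and 1.23), Selenoh, a selenoprotein, at 0.16 (0.93 and 1.30), Uck2, a uridine-cytidine kinase, at 0.20 (0.82 and 1.38) and Mxd3, a partner of MAX, at 0.22 (0.82 and 1.42). Ackr3 had 95 genes closer than 1. Among its nearest were Ano1, a calcium-activated chloride channel, at 0.30 (-2.11 and -0.27), Sox17, a transcription factor of arterial endothelium, at 0.37 (-2.39 and -0.40) and Mall, a membrane raft protein, at 0.42 (-1.99 and -0.03).

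The wider pathway was described with 8 lists, taking for each gene the probe with the highest mean intensity and adjusting limma's p-values over all 21926 genes. Counts of the single lists below are to be read against the shares of all genes given in this paragraph. Of their 115 tested genes, 22 had higher and 48 lower values in P5 minus adult, 60.9% against 53.1% of all genes (30.1% higher and 23% lower), with a median of -0.16 against 0.09. For P10 minus adult 15 were higher and 13 lower, 24.3% against 17.5% of all genes (8.42% higher and 9.1% lower), with a median of 0.05 against 0.01. For P5 minus P10 14 were higher and 43 lower, 49.6% against 41.2% (23% higher and 18.2% lower), with a median of -0.29 against 0.06. With median centring the higher count fell to 14 for P5 minus adult and 4 for P5 minus P10. The lower count rose to 51 for P5 minus adult and 53 for P5 minus P10. The P10 minus adult counts fell to 6 higher and 3 lower. Without the 2 arrays of faulty background 8 genes were higher for P10 minus adult and 6 for P5 minus P10.

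A list of other ligands and receptors linked to CXCL12 or to chemokine scavenging (plotted as CXCL12 partners and scavengers) held 9 tested genes, among them Ackr1, Ackr2 and Ackr4, which scavenge or bind other chemokines than CXCL12. Of the 9, 4 were higher and 2 lower at P5 against adult (median -0.01), and 3 were higher and 2 lower at P10 (median 0.18). Ackr1, an atypical chemokine receptor found on venules and red cells, was at 2.15 at P5 (SE 0.14, adjusted p = 0.000914) and 1.42 at P10 (adjusted p = 0.00598). Ackr2, a scavenger of inflammatory CC chemokines, was at 1.82 (adjusted p = 0.0213) and 2.26 (adjusted p = 0.0296), whereas its other probe was at -0.07 and 0.40. Cd74, a receptor for MIF and a chaperone of MHC class II, was at -1.47 at P5 (adjusted p = 0.00834) and -1.19 at P10 (adjusted p = 0.0364).

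Of 6 tested proteases that can cut CXCL12, 3 were higher and 2 lower at P5 (median 0.59), and 2 were higher and 1 lower at P10 (median 0.07). Both matrix metalloproteinases tested were higher at both young ages, Mmp14 at 1.32 for P5 (adjusted p = 0.00182) and 1.79 for P10 (adjusted p = 0.00296), and Mmp2 at 1.23 (adjusted p = 0.00169) and 1.68 (adjusted p = 0.00282). Cpm, a membrane carboxypeptidase, was at -2.54 at P5 (adjusted p = 0.000525) and -1.52 at P10 (adjusted p = 0.00328).

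Of 18 genes of heparan sulfate presentation, 5 were higher and 3 lower at P5 (median 0.20), and 6 were higher and 0 lower at P10 by limma (median 0.35; 11 and 0 at an unadjusted p below 0.05). Gpc1, a glypican, was at 2.20 at P5 (adjusted p = 0.000964) and 0.71 at P10 (adjusted p = 0.0359). Sdc1, a syndecan, was at 0.63 (adjusted p = 0.00648) and 1.74 (adjusted p = 0.00224). Sulf1, which removes sulfate groups from heparan sulfate, was at 1.22 (adjusted p = 0.00969) and 1.06 (adjusted p = 0.0356), and its other probe at 0.43 and 0.74.

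Of 25 genes that carry the CXCR4 signal, 3 were higher and 15 lower at P5 (median -0.48), and 2 were higher and 3 lower at P10 (median -0.06). Pik3cb, a catalytic subunit of PI3-kinase, was at -1.30 at P5 (adjusted p = 0.00138) and -0.82 at P10 (adjusted p = 0.0118). Ptk2b, a focal adhesion kinase family member, was at -1.08 (adjusted p = 0.0109) and -1.26 (adjusted p = 0.0188), with its other probe at 0.15 and -0.49. Rac2, a GTPase of blood cells, was at 1.19 at P5 (adjusted p = 0.0205) and 0.79 at P10 (adjusted p = 0.126). The higher 3 at P5 also held Vav1, an exchange factor of blood cells, at 0.67 and 1.54 in the 2 replicates, and Gng2, a G protein subunit, at 1.06 and 0.97; Vav1 and Gng2 were singled out after their values were seen.

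Of 19 tested genes of receptor desensitisation and traffic, 4 were higher and 9 lower at P5 (median -0.28), and 0 were higher and 1 lower at P10 by limma (median -0.08; 1 and 3 at an unadjusted p below 0.05). Grk5, a kinase of activated receptors, was at -1.08 at P5 (adjusted p = 0.00384) and -0.02 at P10 (adjusted p = 0.946). Grk2, a kinase of the same family, was at -0.28 at P5 (adjusted p = 0.205) and -0.89 at P10 (adjusted p = 0.0277). Rgs2, which limits G protein signalling, was at 0.95 at P5 (adjusted p = 0.011), with its other probe at -0.04.

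Of 16 regulators of Cxcl12 or Cxcr4 transcription, 0 were higher and 10 lower at P5 by limma (median -0.60; 1 and 11 at an unadjusted p below 0.05), and 2 were higher and 4 lower at P10 (median -0.04). Klf2, a flow-induced endothelial factor, was at -3.35 at P5 (adjusted p = 0.000525) and -1.63 at P10 (adjusted p = 0.00492). Epas1, the hypoxia-inducible factor HIF-2 alpha, was at -3.28 (adjusted p = 0.000525) and -1.08 (adjusted p = 0.00701) at its brightest probe, with 2 other probes between -2.21 and 1.05 for P5 minus adult. Foxc1, a forkhead factor of mural cells and meninges, was at -1.86 (adjusted p = 0.000763) and -0.53 (adjusted p = 0.0339).

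Of 13 tested other chemokine ligands, 2 were higher and 3 lower at P5 (median -0.19), and 0 were higher and 1 lower at P10 by limma (median 0.23; 0 and 2 at an unadjusted p below 0.05). Cx3cl1, fractalkine, was at -1.36 (adjusted p = 0.00321) and -1.04 (adjusted p = 0.0174). Ccl5, a T cell chemokine, was at 0.89 at P5 (adjusted p = 0.00682) and -0.22 at P10 (adjusted p = 0.368), and Cxcl1, a neutrophil chemokine, at -0.77 (adjusted p = 0.00559) and -0.39 (adjusted p = 0.0773).

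Of 9 tested other chemokine receptors, 1 was higher and 4 lower at P5 (median 0.16), and 0 were higher and 1 lower at P10 by limma (median 0.10; 0 and 2 at an unadjusted p below 0.05). Cx3cr1, the fractalkine receptor of microglia, was at 1.35 at P5 (adjusted p = 0.0293), with its other probe at 0.96, and at 0.72 at P10 (adjusted p = 0.247). Ccrl2, an atypical receptor that binds chemerin, was at -1.35 (adjusted p = 0.00107) and -0.66 (adjusted p = 0.0152). Ccr6 was at -0.97 at P5 (adjusted p = 0.0125) and -0.78 at P10 (adjusted p = 0.0538).

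**Figure D4:**
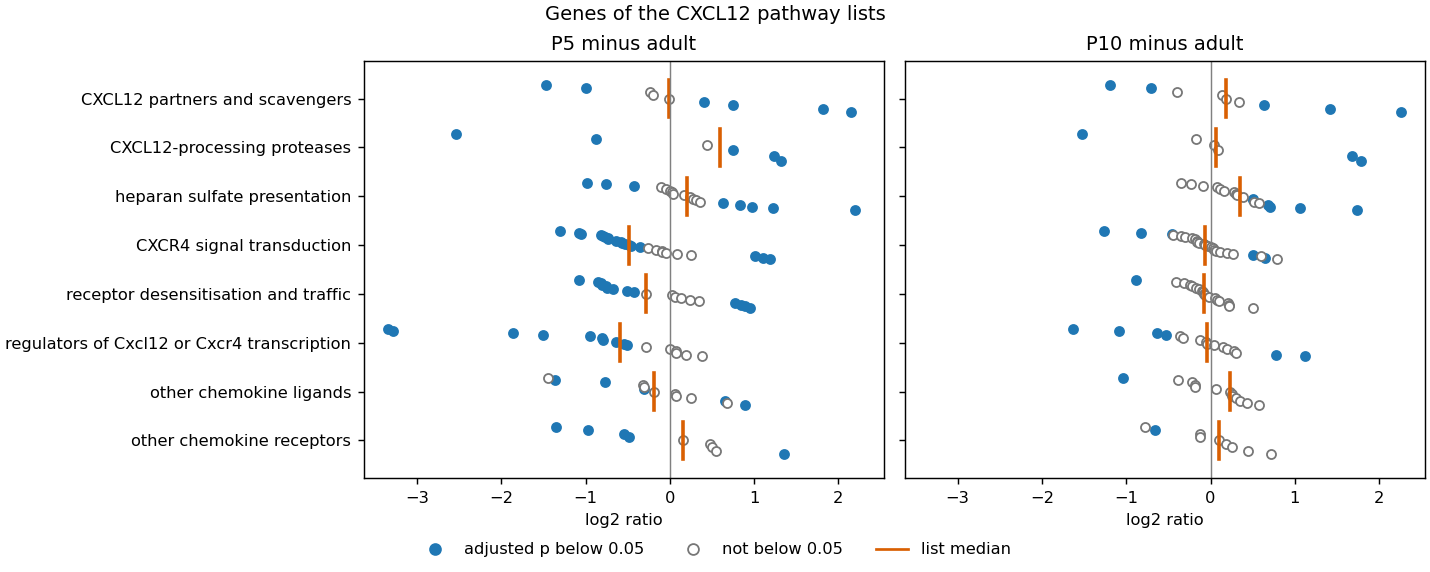
Mean log2 ratio (x axis, the same range in both panels) of each tested gene of the 8 pathway lists (y axis) for P5 minus adult and P10 minus adult; filled points have an adjusted p below 0.05 by limma, open points do not, and vertical bars are list medians. At P5 the regulators of transcription lie mostly below 0, with a median of -0.60, and at P10 the list medians lie between -0.08 and 0.35.

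Markers of the cells that the preparation could hold are given beside these values, and their counts are to be read against the shares of all genes above, 30.1% higher and 23% lower at P5 and 8.42% and 9.1% at P10. All 12 endothelial markers were well enough measured to test, with Cldn5, a tight junction protein, and Ly6c1 the brightest, and all 12 were lower at P5 than in the adult (median -1.69), while 4 of 12 were lower at P10 (median -0.40). Their summed linear level was 89200 and 68200 at P5, 207000 and 173000 at P10, and 535000 and 419000 in the adult. Arterial markers, led by Mgp and Gja4, had 11 of 12 lower at P5 (median -1.97) and 3 higher and 1 lower at P10 (median 0.04), with summed levels of 14700 and 14300, 62200 and 92200, and 55000 and 59600 at P5, P10 and adult. In these bulk samples fewer cells of a type and less RNA per cell cannot be told apart.

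Pericyte markers, led by Vtn and Higd1b, were lower at P5 in 8 of 9 (median -1.40) and at P10 in 3 of 9 (median -0.53). Smooth muscle markers, led by Myl9 and Tagln, were lower in 6 of 7 at P5 (median -2.42) and 1 of 7 at P10 (median -0.15). Tip cell markers, led by Cd34 and Unc5b, had 3 higher and 7 lower of 13 at P5 and 5 higher and 2 lower at P10. Fibroblast and meningeal markers, which included Col1a2 and Dcn, had 6 higher and 2 lower of 10 at P5 (median 0.89) and 5 higher and 0 lower at P10 by limma (median 0.76; 8 and 1 at an unadjusted p below 0.05).

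Of 14 immature neuron markers, 11 were higher and 1, Nes, lower at P5 (median 1.73), and 7 were higher and 1, Tbr1, lower at P10 (median 0.48). Stmn2 was at 1.54 at P5 and Lhx6 at 1.70, with another Lhx6 probe at 0.46; Nes and Tbr1 were named after their values were seen. The summed levels of the list were 72700 and 46800 at P5, 32000 and 24200 at P10, and 27800 and 19300 in the adult. Lhx6, whose probes differed, had the highest mean intensity of the list and so weighs heavily in these sums. Of 6 oligodendrocyte precursor markers, 5 were higher at P5 and 1 lower. Of the brightest of them, Gpr17 was at 1.83 and Cspg4, the lower one, at -0.56. Cspg4 was also counted among the pericyte markers, and Pdgfra, another of the precursor list, also among the fibroblast and meningeal markers. Pathway and marker lists shared tested genes too, so their counts are not separate observations. These were Elane (proteases and granulocytes), Cx3cr1 (chemokine receptors and microglia), Cxcr2 (chemokine receptors and granulocytes) and Adm (CXCL12 partners and tip cells). Of 7 astrocyte markers, which included S100b and Aldh1l1, 2 were higher and 2 lower. Microglial markers, which included Itgam (1.66 at P5, with 2 other probes at 0 to 0.52) and Csf1r, were higher in 3 of 8 at P5 (median 0.66), near the share of all genes, and 0 of 8 at P10 by limma (0 also at an unadjusted p below 0.05), and perivascular macrophage markers, led by Pf4 and Cbr2, had 1 higher and 2 lower of 5 at P5.

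Erythroid markers, led by the globin genes Hba-a1 and Hba-a2, were higher in 9 of 9 at P5 (median 4.80) and 6 of 9 at P10 (median 2.14). Summed levels of this list were 2220000 and 1940000 at P5, 483000 and 620000 at P10, and 146000 and 130000 in the adult. Granulocyte markers, led by Csf3r and S100a9, were higher in 2 of 11 at P5 and 0 of 11 at P10 by limma (0 also at an unadjusted p below 0.05). Their summed levels were 147000 and 127000 at P5, 29900 and 64000 at P10, and 56600 and 52600 in the adult. A sum gives most weight to bright probes, and Csf3r, the brightest, was at 2.43 and 1.54 at P5 in replicates 1 and 2. The brightest probes of Itgam and Lhx6, from lists of other cells, had like values, 2.10 and 1.22 for Itgam and 2.00 and 1.39 for Lhx6. This likeness was noticed after the values were seen, and its cause was not tested. Ngp, Camp, Mpo and Cxcr2, named after their values were seen, were at -0.28, -0.20, -0.33 and -0.10 in replicate 1. In replicate 2 they were at 1.01, 1.27, 1.03 and 0.42. The other tested granulocyte markers were above 0 at P5 in both replicates. Lymphocyte markers, which included Cd3e and Cd79b, were higher in 3 of 8 at P5 and 0 of 8 at P10 by limma (1 at an unadjusted p below 0.05). At P5 the lymphocyte count was near the 30.1% of all genes that were higher, and the granulocyte count was below it. The medians of the granulocyte and lymphocyte lists were 0.71 and 0.49 at P5 and -0.26 and 0.18 at P10. Cxcr4, which blood cells and immature neurons also express, had means of 0.89 and 1.28 in the same comparisons. The part of these cells in the values of Cxcl12, Cxcr4 and Ackr3 was not tested.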

How the data were processed

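Feature Extraction, Agilent's image software, made the 8 deposited files (version 10.5.1.1 per the file headers, 12.6 per the submitters' processing notes). Per the file headers, signals of spots and background are linear intensity values, and the deposited log10 ratio is Cy5 over Cy3; it is not used for results. Per the labels' protocols, 100 ng of total RNA was labelled.

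In R 4.3.3 with limma 3.58.1, median signals were corrected by normexp (offset 50). On 2 arrays 4 and 7 spots lay more than 100 below their recorded background; for this step the median background of the array replaced theirs, and they were then left out. Loess (span 0.3) followed, where control and outlier spots had weight 0. Spots of 1 probe were averaged, and a probe was kept if some age had it well above background in all its channels: 27170 were, of which 27089 could be fitted.

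The 4 ratios of a replicate, which share a slide, were fitted with P5, P10 and dye terms. The resulting values went into limma with age and replicate (2 residual and 3.05 prior degrees of freedom), with Benjamini-Hochberg adjustment per comparison. The replicate number is a block in this fit because a ratio exists only within a slide that holds all 3 ages. The script was tested on simulated data.

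Members, lists and tests were chosen with earlier results of these data known. Named genes were the 4 nearest to each member's probe (1 of them is not reported here), up to 3 members of each pathway list with the largest ratios past the threshold, and the 2 brightest of each marker list. RefSeq symbols (GRCm38.p6) matched 27427 probes, and 12002 had none. Of the marker lists, Rgs5, Lmod1, Cd163, Igll1 and Cd8a had no probe that was both kept and fitted, and Ly6g and Ahsp had no probe by symbol. Alternatives changed the background correction, normalization, filter, arrays and block.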

Additional observations from a re-analysis of the deposited data

How the results depend on the processing

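For Cxcr4 and Ackr3, no alternative run turned the direction of a value past the threshold; for the pathway lists and all probes only counts were compared. With the background fitted on all spots, faulty ones included, counts of probes past the threshold were 3206 higher and 3206 lower for P5 minus adult, 112 and 158 for P10 minus adult, and 16 and 17 for P5 minus P10; Cxcr4 was at 0.41 and 1.01 for P5 and P10 minus adult and Ackr3 at -1.76 for P5 minus P10, all past the threshold no longer. That fit takes in the spots whose recorded background is faulty.

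With median centring, which moved the median of all probes from 0.06 to -0.09 for P5 minus adult, 760 probes were higher and 708 lower for P10 minus adult, and the higher share of the calls in P5 minus P10 went from 53.4% to 39.1%. Pathway counts were 14 higher and 51 lower for P5 minus adult and 6 higher and 3 lower for P10 minus adult. For P5 minus P10 they were 4 higher and 53 lower. Cxcl12 was, at the brighter probe, at -5.58, -2.80 and -2.79 for P5 minus adult, P10 minus adult and P5 minus P10, the dimmer at -0.57 and -1.35 for P5 minus adult and P5 minus P10, and Cxcr4 at 0.64 for P5 minus adult; the cause was not tested.

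Without the 2 arrays of faulty background, 1010 probes were higher and 1249 lower for P10 minus adult and 3811 and 2911 for P5 minus P10, pathway counts (added after seeing the data) were 8 higher for P10 minus adult and 6 higher for P5 minus P10, and the brighter Cxcl12 probe was at -4.01, -2.65 and -1.36. Without the dye-exchanged arrays its P10 minus adult was -2.70. Fewer arrays entered these fits.

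With no replicate block, a fit of age alone to separate-channel levels, 925 probes were higher and 1113 lower for P10 minus adult and 3309 and 2986 for P5 minus P10. Pathway counts were 14 higher for P5 minus adult, 8 and 6 for P10 minus adult, and 3 and 28 for P5 minus P10. For P5 minus P10 the brighter Cxcl12 probe was at -1.41, and no call on Cxcr4 or Ackr3 changed.

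Leaving out a replicate leaves 1 value and no test. Cxcl12 at its brighter probe then ran from -5.24 to -4.52, -3.10 to -2.97 and -2.14 to -1.55 over the 3 comparisons, and the dimmer from -0.34 to 0.37, 0.64 to 0.91 and -0.98 to -0.54. Cxcr4 ran from 0.84 to 0.94, 1.01 to 1.55 and -0.61 to -0.17, and Ackr3 from -2.28 to -2.19, -0.27 to -0.11 and -2.09 to -2.01. Of the receptor values under all alternatives, 56 kept direction and side of the threshold or had no test, and 4 did not pass any longer.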
